A study of Mus musculus with 8 samples.

Results

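Cholesterol and fatty acid synthesis genes were read on Affymetrix arrays of CD4+ T cells sorted by the fluorescence of an EGFP (enhanced green fluorescent protein) tag on Foxp3, the X-linked gene of the transcription factor that defines regulatory T cells. The set consisted of 32 named genes of the mevalonate, sterol and fatty acid routes and their regulators, of which 31 had a named probe set, out of 18193 genes with a probe set in all. Acat2, a cytosolic thiolase, had none named here. Each gene was read by its probe set with the highest mean log2 intensity over the 8 arrays; the 31 genes had 73 probe sets together, and 8 genes had only 1.

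All 8 arrays came from mice carrying an EGFP-tagged Foxp3 allele, either the mutant one the labels call delta or the wild-type (WT) one. Per the study's design text, cells that carried the tag came from hemizygous males. The groups were arrays labelled delta EGFP-positive (n = 3), WT EGFP-positive (n = 3), delta EGFP-negative (n = 1) and WT EGFP-negative (n = 1). The labels give no strain, age, organ or pooling, and nothing in them says whether the 3 arrays of a group are 3 animals; the spread behind each p-value may therefore be technical. With 1 EGFP-negative array per allele, the fit took the spread of the replicated groups for it.

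Cells make cholesterol from acetyl-CoA through mevalonate, farnesyl diphosphate, squalene and lanosterol, and make fatty acids from the same acetyl-CoA through malonyl-CoA. Both routes are driven by the SREBP transcription factors (Srebf1 and Srebf2), which Scap carries out of the endoplasmic reticulum when sterols are low and which the Insig proteins hold back when sterols are high. T cells that divide are known to raise both routes, since new membrane is needed.

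The array labels were first set against marker genes. The T cell genes Cd3d, Cd3e, Cd3g, Cd4 and Cd28 had percentiles of 95.6 to 99.5 among all probe sets in every array, and Cd28 was lower in the arrays labelled delta EGFP-positive than in those labelled WT EGFP-positive (difference -0.66 on the log2 scale, adjusted p = 0.031). The Foxp3 probe set ranked between the 96.8 and 97.9 percentile in the arrays labelled delta EGFP-positive and between the 24.8 and 31.3 percentile in those labelled WT EGFP-positive, which goes against the second label. Whether its probes lie inside the changed stretch of an allele is not stated. The other regulatory T cell genes, Il2ra, Ctla4, Ikzf2 and Tnfrsf18, were higher in the arrays labelled WT EGFP-positive than in the array labelled WT EGFP-negative (differences of 1.96 to 5.48). The array labelled delta EGFP-negative also stood apart from the WT one: Ikzf2 was at 11.48 in it and at 7.98 in the WT EGFP-negative array, Ctla4 at 9.26 and 6.09, Il2ra at 7.47 and 5.38, and Foxp3 at 6.14 and 4.52. Its Foxp3 percentile, 56.4, lay above every array labelled WT EGFP-positive, whose own Foxp3 reading goes against their label. Within the delta allele the order followed the labels. Foxp3 averaged 11.28 in the arrays labelled delta EGFP-positive (difference 5.13), and each of those ranked above this array. The delta comparison by tag, the interaction and the EGFP-negative values below rest on this 1 array, and no second one replaces it. Arrays are named below as they are labelled, and each direction between alleles rests on those labels. None of the 4 B cell, 6 myeloid and 2 erythroid marker genes measured, and neither CD8 gene, passed the test between the EGFP-positive groups; of the 2 NK cell genes Klrd1, a killer lectin-like receptor, did, at 7.36 in the delta and 4.26 in the WT arrays on average (difference 3.1, adjusted p = 0.0004). The NK pair averaged 6.11 to 6.55 in the arrays labelled delta EGFP-positive and 4.63 to 4.89 in those labelled WT EGFP-positive. That gap came from Klrd1, since the other NK gene, Ncr1, was at 5.3 and 5.22 (difference 0.08, adjusted p = 0.81). Klrd1 was also at 7.43 in the WT EGFP-negative array and at 6.67 in the delta one. The myeloid list averaged 5.51 to 5.96 on the log2 scale in the arrays labelled delta EGFP-positive and 5.7 to 6.64 in those labelled WT EGFP-positive. Of its genes Csf1r differed by -1.81 (adjusted p = 0.15), with a percentile of 91.8 in WT EGFP-positive replicate 3. The others differed by -0.52 to 0.5. The CD8 pair averaged 6.26 to 8.12 in the delta and 5.94 to 6.71 in the WT arrays. Cd8a was at 7.76 and 5.96 on average (difference 1.81, adjusted p = 0.16) and Cd8b1 at 6.93 and 6.88 (0.05, 0.94). In RMA values no probe set is at 0, and the part of these cells in the results was not tested.

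Arrays labelled delta EGFP-positive were compared with arrays labelled WT EGFP-positive to describe how the routes differ with the mutant allele in cells sorted for the tag. Pmvk (2.22-fold) and Acaca (2.03-fold) led the genes that rose in the arrays labelled delta EGFP-positive, while Srebf2 and Elovl5 fell. Of the 31 genes, 9 rose (29.0%), 2 fell and 20 did not pass a limma adjusted p of 0.05 taken over all 45037 probe sets. Of all 18193 genes 10.4% rose and 6.02% fell, 16.5% in either direction. Because 29 of the 31 lay above the median level of all probe sets, the nearer background is the 10962 genes above that level, of which 16.2% rose and 9.41% fell (25.6% together). The median difference was 0.24 over the 31 genes and 0.019 over all genes, on the log2 scale, as are all differences below. In 12 of the 31 genes all 3 delta arrays lay above all 3 WT arrays and in 2 all lay below, against 20.2% and 14.0% of all genes. Cell cycle genes moved with the same contrast: 17 of 18 rose and 0 fell, with a median of 2.25. Their mean level was 10.94, 10.82 and 11.05 in the arrays labelled delta EGFP-positive, 8.78, 8.22 and 9.09 in those labelled WT EGFP-positive, 10.2 in the delta EGFP-negative array and 8.08 in the WT EGFP-negative array. Of 15 immediate-early and heat shock genes, read as a sign of handling, 0 rose and 4 fell (differences of -3.45 for Hspa1b, -2.85 for Dnajb4, -1.7 for Hspa1a and -0.48 for Dnajb1), with a median of -0.93. That count was 2 without delta EGFP-positive replicate 2, 1 without WT EGFP-positive replicate 1 and 10 without WT replicate 2 and delta replicate 3 together. The part of either list in the lipid gene differences was not tested. In bulk RNA, fewer cells of a kind and less RNA per cell cannot be told apart.

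**Figure D1:**
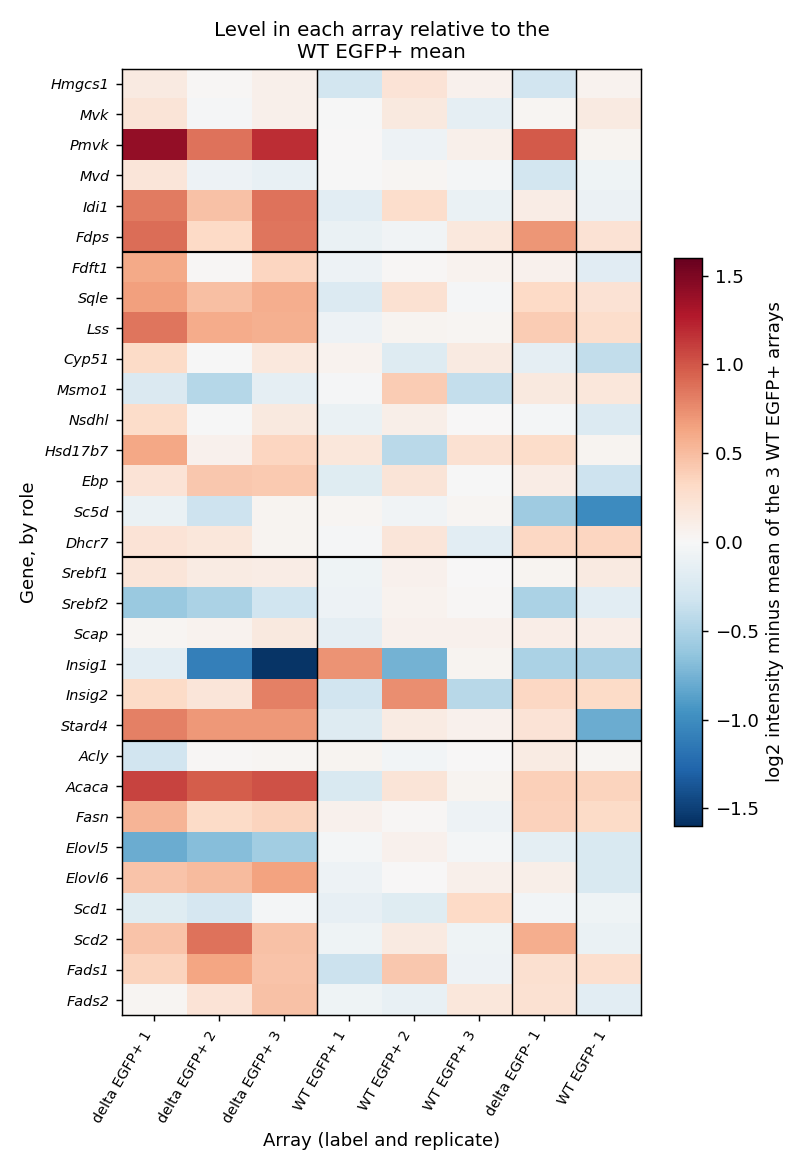
Level of each of the 31 genes (rows, grouped by role) in each of the 8 arrays (columns), as log2 intensity minus the mean of the 3 WT EGFP-positive arrays; red is higher and blue lower. Pmvk and Acaca are red in all 3 delta EGFP-positive arrays, Srebf2 and Elovl5 blue, and Insig1 and Insig2 differ among arrays of 1 label.

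The mevalonate arm makes the isoprenoid units from which sterols are built. Of its 6 measured genes 3 rose (50.0%) and 0 fell, against 16.2% and 9.41% of genes above the median level. Pmvk, which phosphorylates phosphomevalonate, stood at 8.55, 8.01 and 8.32 in the arrays labelled delta EGFP-positive, against 7.15, 7.06 and 7.22 in those labelled WT EGFP-positive. The groups did not overlap, and every delta array was well above the WT range (difference 1.15, SE 0.15, adjusted p = 0.0027, probe set 1427893_a_at). Idi1 (probe set 1451122_at), the isomerase that yields the reactive isoprenoid, stood at 9.3, 8.94 and 9.35 in the delta arrays and at 8.3, 8.76 and 8.36 in the WT arrays. WT replicate 2 came closest to the delta values (difference 0.72, SE 0.17, adjusted p = 0.029), and a second Idi1 probe set differed by 0.56 without passing (0.2). Fdps (probe set 1423418_at), which joins the units to farnesyl diphosphate, stood at 10.2, 9.63 and 10.17 in the delta arrays and at 9.2, 9.25 and 9.48 in the WT arrays. Here delta replicate 2 lay closest to the WT range (difference 0.69, SE 0.18, adjusted p = 0.041), and a second, dim Fdps probe set differed by 0.03.

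The remaining mevalonate genes did not pass. Hmgcs1, which condenses the first intermediate and is a textbook SREBP target, differed by 0.08 (95% interval -0.26 to 0.42, adjusted p = 0.82), and its other probe sets by -0.18 to 0.19. Mvk, the mevalonate kinase, differed by 0.09 (-0.19 to 0.38, 0.74). Mvd, the decarboxylase that follows Pmvk in the route, differed by -0.004 (-0.285 to 0.278, 0.99). Pmvk therefore stood between 2 route neighbours whose intervals excluded a difference of its size.

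The squalene and sterol arm turns farnesyl diphosphate into cholesterol. Of its 10 genes 2 rose (20.0%) and 0 fell. That share lies near the 16.2% of genes above the median level that rose. Sqle (probe set 1415993_at), the epoxidase of squalene and a rate-limiting step, stood at 8.78, 8.6 and 8.7 in the arrays labelled delta EGFP-positive and at 7.91, 8.36 and 8.1 in those labelled WT EGFP-positive (difference 0.57, SE 0.14, adjusted p = 0.034). Lss (probe set 1420013_s_at), which folds the epoxide into lanosterol, stood at 8.25, 7.98 and 7.96 in the delta arrays and at 7.32, 7.43 and 7.43 in the WT arrays (difference 0.67, SE 0.12, adjusted p = 0.01). Neither gene overlapped between the groups, and the WT values of Lss lay within a narrow range. The 2 other Lss probe sets, both below the median level, differed by -0.03 and 0.13.

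The 8 other sterol genes were spread from -0.28 to 0.36. Fdft1, the squalene synthase, differed by 0.33 (adjusted p = 0.26), Ebp, a sterol isomerase, by 0.36 (0.15) with no overlap between the groups, and Hsd17b7, a sterol ketoreductase, by 0.34 (0.4). Cyp51, which demethylates lanosterol, differed by 0.16 (0.58), Nsdhl, a sterol dehydrogenase, by 0.15 (0.55) and Dhcr7, which carries out a last reduction to cholesterol, by 0.15 (0.57). Msmo1, the methyl sterol oxidase, differed by -0.28 (0.47) and Sc5d, a sterol desaturase, by -0.13 (0.6). None of these 8 passed.

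Among the regulators Srebf2 (probe set 1452174_at), the SREBP gene tied to sterol synthesis, fell. It stood at 8.86, 8.94 and 9.13 in the arrays labelled delta EGFP-positive, against 9.37, 9.51 and 9.47 in those labelled WT EGFP-positive (difference -0.47, SE 0.12, adjusted p = 0.035). A second Srebf2 probe set differed by -0.51 (SE 0.16) and did not pass (0.077). Srebf1, the relative tied to fatty acid synthesis, differed by 0.15 (0.45) and Scap, the escort of both, by 0.08 (0.75). The sterol carrier Stard4 (probe set 1429239_a_at), which moves cholesterol between membranes, rose: 9.35, 9.23 and 9.23 in the delta arrays against 8.33, 8.68 and 8.61 in the WT arrays (difference 0.73, SE 0.13, adjusted p = 0.0089). Its 2 other probe sets also passed, at 0.59 and 0.48.

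Insig1 and Insig2, which hold SREBP back, had the largest SDs within a group over the 31 genes (0.74 and 0.65, both in the arrays labelled WT EGFP-positive). Insig1 stood at 8.22, 7.3 and 6.82 in the arrays labelled delta EGFP-positive and at 9.11, 7.64 and 8.44 in those labelled WT EGFP-positive (difference -0.95, SE 0.44, adjusted p = 0.23). Insig2 stood at 8.63, 8.52 and 9.13 in the delta arrays and at 8.02, 9.06 and 7.88 in the WT arrays (difference 0.44, SE 0.32, adjusted p = 0.47). Delta replicate 3 and WT replicate 2 were the lowest of their groups for Insig1 and the highest for Insig2. The same 2 arrays were also the lowest of their groups in the list of immediate-early and heat shock genes, whose mean was 9.77, 9.72 and 8.55 in the delta arrays and 10.83, 9.76 and 10.8 in the WT arrays. Its part in the Insig values was not tested. Without these 2 arrays Insig2 differed by 0.63 and passed (adjusted p = 0.022), as it did without WT replicate 2 alone (0.81, 0.027). WT replicate 2 held the highest WT value of Insig2, so leaving it out widens the gap in advance and is no separate support. Over the 14 alternatives Insig2 differed by 0.22 to 0.81, with an adjusted p of up to 0.8. Without the 2 arrays Insig1 differed by -1.01 (0.068).

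Of the 9 fatty acid genes 3 rose (33.3%) and 1 fell, against 16.2% and 9.41% of genes above the median level. Acaca (probe set 1434185_at), the carboxylase that makes malonyl-CoA and commits carbon to fatty acids, stood at 8.42, 8.32 and 8.37 in the arrays labelled delta EGFP-positive, against 7.1, 7.55 and 7.38 in those labelled WT EGFP-positive. The delta arrays lay close together and above every WT array (difference 1.02, SE 0.14, adjusted p = 0.0028), while a second probe set of lower level differed by 0.17 (0.4). Acly, which supplies the acetyl-CoA, differed by -0.09 (-0.38 to 0.21, adjusted p = 0.76). Fasn, the synthase that follows Acaca, stood at 9.62, 9.38 and 9.43 in the delta arrays and at 9.14, 9.09 and 8.98 in the WT arrays. These did not overlap, yet the difference of 0.4 (SE 0.11) missed the threshold (0.059), which it met with an offset of 16 before log2 (0.032), with dim probe sets left out (0.043) and with all probe sets of a gene averaged (0.026). It did not pass under the other 11 alternatives, with an adjusted p of up to 0.18. Fasn has 1 probe set, so averaging could not change its difference. The filter on dim probe sets also left it at 0.4, and only the adjusted p moved.

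The 2 elongases moved in opposite directions. Elovl6 (probe set 1417404_at), which lengthens saturated and monounsaturated chains, stood at 7.7, 7.74 and 7.89 in the arrays labelled delta EGFP-positive and at 7.16, 7.25 and 7.32 in those labelled WT EGFP-positive (difference 0.53, SE 0.11, adjusted p = 0.018). Elovl5, which lengthens polyunsaturated chains, stood at 10.82, 10.93 and 11.06 in the delta arrays and at 11.58, 11.68 and 11.58 in the WT arrays (difference -0.68, SE 0.11, adjusted p = 0.007). Its probe set, 1437211_x_at, is of a kind whose probes may also match other transcripts. The second Elovl5 probe set fell by 0.75 as well (0.0096). The probe sets read for Hmgcs1, Fdft1 and Hsd17b7 are of that kind too. Those read for Lss and Mvd end in _s_at, and whether they match other transcripts was not checked. Scd2 (probe set 1415822_at), a stearoyl-CoA desaturase, stood at 9.73, 10.15 and 9.75 in the delta arrays and at 9.21, 9.42 and 9.2 in the WT arrays (difference 0.6, SE 0.15, adjusted p = 0.035). Its relative Scd1 was dimmer than the median probe set and differed by -0.17 (0.61). Fads1 and Fads2, the desaturases of polyunsaturated chains, differed by 0.48 (0.18) and 0.24 (0.39). Fads1 passed without WT replicate 2, the WT array in which it was highest (0.69, 0.017).

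**Figure D2:**
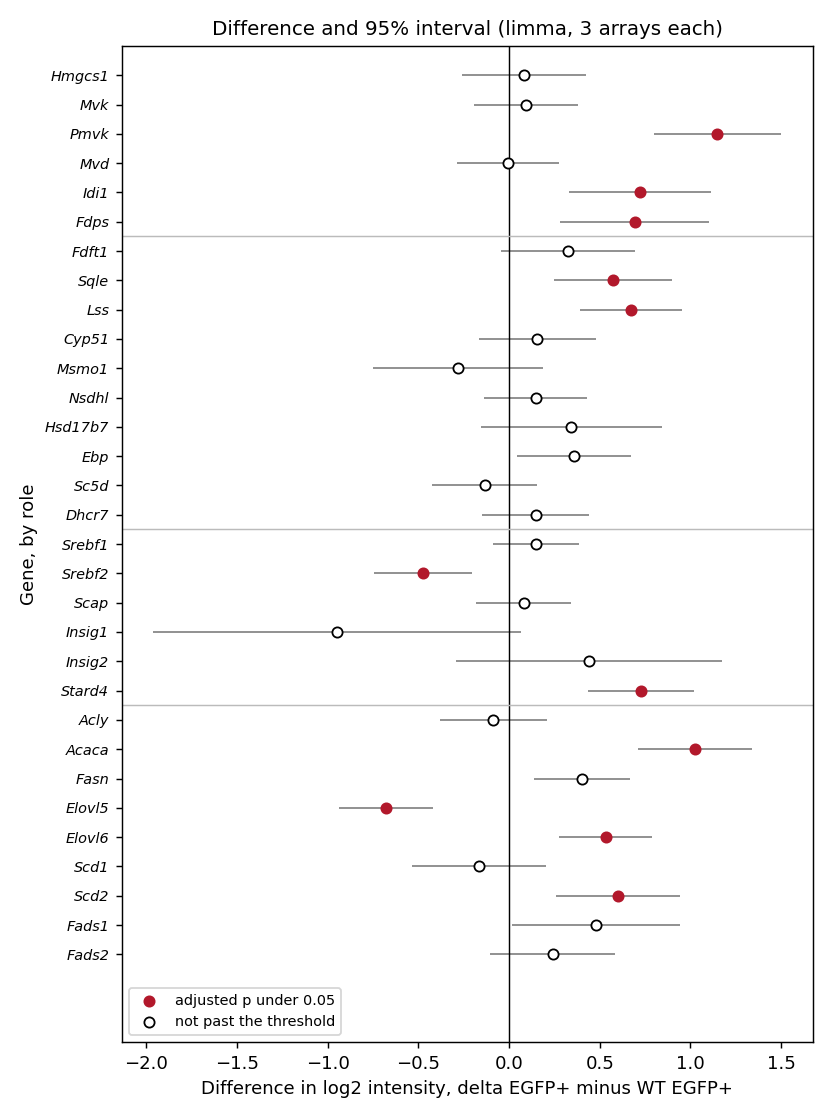
Difference in log2 intensity, delta EGFP-positive minus WT EGFP-positive, for each of the 31 genes by role, with the 95% interval of limma's fit (3 arrays each). Filled points passed an adjusted p of 0.05: 9 to the right of 0 and Srebf2 and Elovl5 to the left.

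Pmvk, Stard4, Acaca and Elovl5 passed under all 14 alternatives tried, although the difference of Acaca was 0.6 with its probe sets averaged, against 1.02 by its brightest. The 14, here and below, include the fit to the 6 EGFP-positive arrays. For this contrast that fit could not differ from the main one, since single arrays add nothing to the spread. Averaging probe sets could not change the difference of Pmvk either, which has 1. Lss passed under all except the mean of its probe sets (adjusted p = 0.096). The number of genes past the threshold, 11 with all arrays, was 6, 7 and 6 without delta EGFP-positive replicate 1, 2 and 3, and 5, 11 and 6 without WT EGFP-positive replicate 1, 2 and 3. Idi1 was lost without delta replicate 1 (0.11) or 3 (0.087) and WT replicate 1 (0.11) or 3 (0.1). Sqle was lost without any EGFP-positive array except WT replicate 2 (0.073 to 0.12), Fdps without any except delta replicate 2 (0.063 to 0.14), and Srebf2 without any except delta replicate 3 (0.063 to 0.12). Scd2 was lost without any except WT replicate 2 (0.054 to 0.12). Elovl6 was lost without delta replicate 2 (0.056) or 3 (0.059) or WT replicate 1 (0.073). Without WT replicate 2 and delta replicate 3 together the count was again 11, but with Insig2 and Fads1 in place of Fdps and Elovl6.

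**Figure D3:**
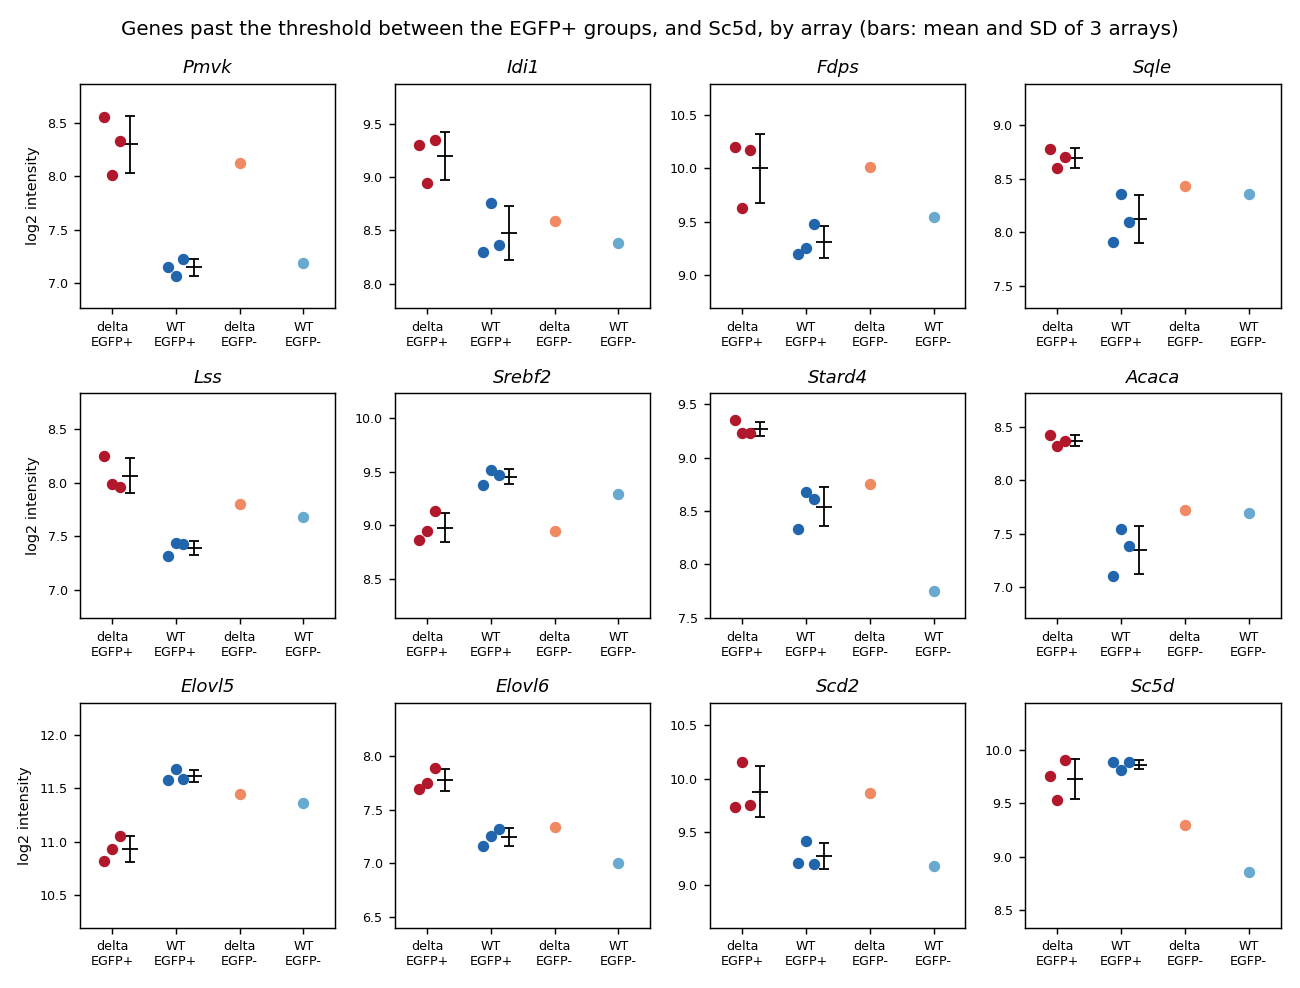
Log2 intensity in each of the 8 arrays for the 11 genes past the threshold between the EGFP-positive groups and for Sc5d, 1 dot per array, with mean and SD beside the groups of 3; every panel spans the same height. Pmvk and Scd2 are high in the delta EGFP-negative array too, while Acaca there lies near the WT EGFP-negative array.

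Promoters of genes that moved and of 1 that did not are shown because sterol-driven promoters are known for SREBP and NF-Y motifs lying close together. The windows are RefSeq's on GRCm38.p6, 250 bases before to 50 after the start, 5′ to 3′ on the gene's own strand (+ for all 4). Capitals mark matches to the sterol regulatory element TCACNCCAC and to CCAAT, the NF-Y motif, on either strand. Idi1 (chr13:8885356-8885655) and Lss (chr10:76531355-76531654) rose, Elovl5 (chr9:77917115-77917414) fell and Hmgcs1 (chr13:119690101-119690400) did not pass.
Idi1: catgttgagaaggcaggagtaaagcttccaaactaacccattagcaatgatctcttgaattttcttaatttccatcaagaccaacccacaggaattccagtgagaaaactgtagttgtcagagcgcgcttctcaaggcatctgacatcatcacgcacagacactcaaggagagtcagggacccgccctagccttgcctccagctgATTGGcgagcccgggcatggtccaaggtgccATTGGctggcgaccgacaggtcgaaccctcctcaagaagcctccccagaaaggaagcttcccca
Lss: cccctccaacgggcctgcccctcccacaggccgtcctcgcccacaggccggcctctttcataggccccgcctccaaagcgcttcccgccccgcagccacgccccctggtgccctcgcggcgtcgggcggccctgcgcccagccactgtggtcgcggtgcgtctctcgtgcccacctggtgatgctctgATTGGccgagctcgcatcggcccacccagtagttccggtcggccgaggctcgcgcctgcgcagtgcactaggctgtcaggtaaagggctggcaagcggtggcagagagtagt
Elovl5: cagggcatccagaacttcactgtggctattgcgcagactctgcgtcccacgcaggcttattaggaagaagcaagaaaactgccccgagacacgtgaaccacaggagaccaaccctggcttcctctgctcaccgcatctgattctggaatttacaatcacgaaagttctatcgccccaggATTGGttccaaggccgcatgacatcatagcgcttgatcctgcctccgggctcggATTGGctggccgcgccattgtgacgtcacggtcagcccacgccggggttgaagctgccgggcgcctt
Hmgcs1: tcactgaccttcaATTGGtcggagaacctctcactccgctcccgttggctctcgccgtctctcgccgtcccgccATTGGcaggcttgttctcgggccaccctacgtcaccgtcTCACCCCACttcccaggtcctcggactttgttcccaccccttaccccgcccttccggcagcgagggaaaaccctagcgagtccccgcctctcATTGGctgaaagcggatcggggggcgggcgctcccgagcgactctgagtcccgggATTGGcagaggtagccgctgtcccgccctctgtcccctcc
Windows were found for 25 of the 32 genes, with 33 windows in all. TCACNCCAC was in 1 of these 25 genes, Hmgcs1, where it begins at base -137, and in 1.44% of all 27025 genes with a window. CCAAT was in 20 of the 25 (80.0%), against 41.1% of all genes, and its letters do not overlap those of TCACNCCAC in Hmgcs1. A gene was counted where any of its windows matched. Among genes past the threshold with a window, CCAAT was found for Pmvk, Idi1 and Lss, which rose, and for Srebf2 and Elovl5, which fell. For Pmvk it was in the window starting at chr3:89454291 and not in the one starting at chr3:89459321. Its letters were not in the windows of Acaca and Elovl6, which rose. GGGCGG, the GC box, was in 20 of 25 genes (80.0%) against 38.2% of all, and the E-box CACGTG in 6 of 25 (24.0%) against 8.09%. A match describes these letters and no binding.

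The EGFP-positive arrays of each allele were next set against the EGFP-negative array of that allele, to describe how the routes differ with the tag. For the delta allele limma called 0 of the 31 genes, against 0.0879% of all genes called in either direction. A looser cut, an unadjusted p under 0.05, took in 6 of the 31. The share of all genes at that cut was not counted, so the 6 have no background. Those 6 were Acaca (0.64), Idi1 (0.61), Stard4 (0.51), Elovl6 (0.44), Sc5d (0.44) and Elovl5 (-0.52), whose adjusted p lay between 0.34 and 0.49. For the WT allele 1 of the 31 was called, against 1.5% of all genes. This was Sc5d, at 9.89, 9.81 and 9.89 in the arrays labelled WT EGFP-positive against 8.86 in its EGFP-negative array (difference 1.01, SE 0.18, adjusted p = 0.049). The delta allele had the same order, with 9.75, 9.53 and 9.9 in the arrays labelled delta EGFP-positive and 9.29 in the array labelled delta EGFP-negative. Leaving out any of the EGFP-positive arrays but WT replicate 2 lost the Sc5d call (0.056 to 0.15), and its 2 other probe sets differed by 0.16 and 0.35. Stard4, given above for the EGFP-positive arrays, was 7.75 in the WT EGFP-negative array (difference 0.79, SE 0.18, adjusted p = 0.13).

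**Figure D4:**
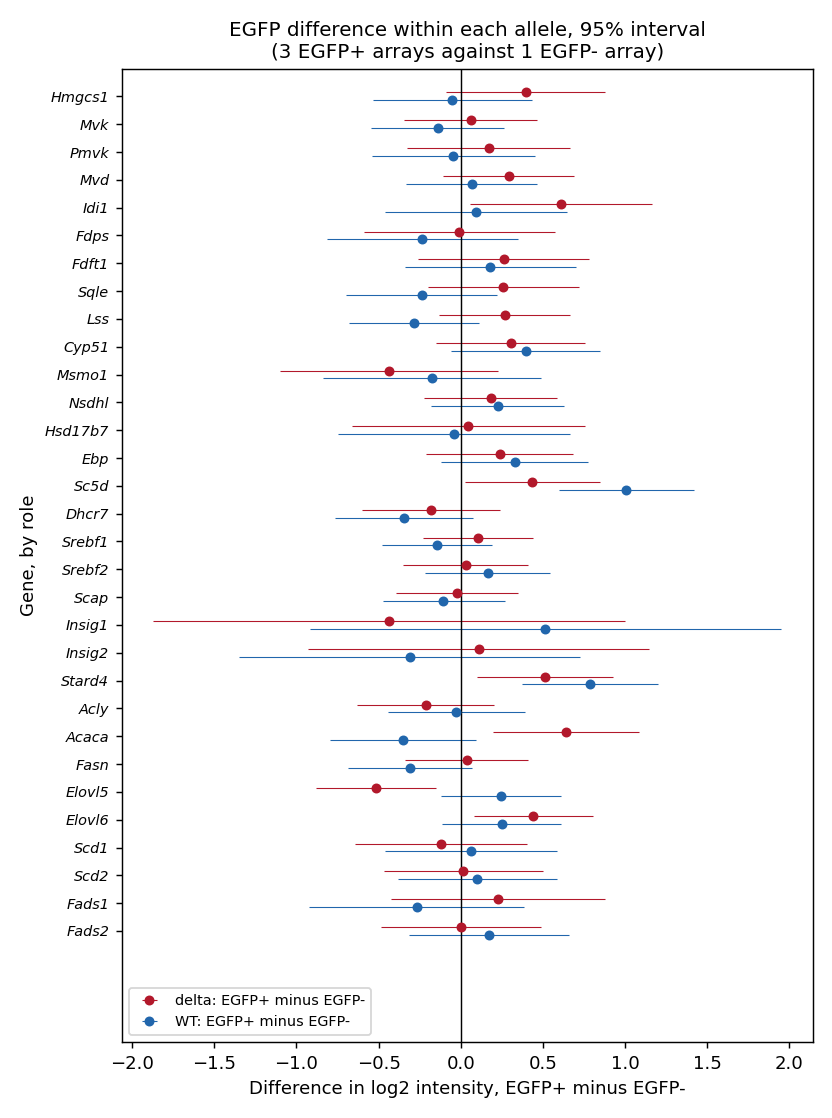
Difference in log2 intensity, EGFP-positive minus EGFP-negative, for each of the 31 genes in the delta allele (red) and the WT allele (blue), with the 95% interval of limma's fit (3 arrays against 1). Sc5d of the WT allele, at 1.01, is the 1 point past the threshold, and the wide intervals come with 1 EGFP-negative array per allele.

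Whether the difference with the tag itself differed between the alleles was tested as an interaction. Limma called 0 of the 31 genes, against 0.066% of all genes called. At an unadjusted p under 0.05, a looser cut for which no share of all genes was counted, there were 2. The 2 were Acaca and Elovl5. For Acaca the EGFP-positive minus EGFP-negative difference was 0.64 in the delta allele and -0.35 in the WT allele (interaction 0.99, 95% interval 0.36 to 1.62, adjusted p = 0.55). For Elovl5 the values were -0.52 and 0.25 (interaction -0.76, -1.28 to -0.25, adjusted p = 0.59). In each the 3 EGFP-positive arrays lay on 1 side of their EGFP-negative array for delta and on the other side for WT. Over the 31 genes the 95% interval of the interaction had a median width of 1.26, so small differences were not detectable with these arrays.

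The single array labelled delta EGFP-negative, with the Foxp3 reading given above, was set against the single array labelled WT EGFP-negative by values alone. Stard4 was 8.76 in the delta array and 7.75 in the WT array, and at a difference of 1 it was the 1 gene of the 31 to differ at least 2-fold, against 3.78% of all genes higher and 1.04% lower. Pmvk was 8.13 and 7.19 (difference 0.93), Scd2 9.86 and 9.18 (0.68) and Fdps 10.01 and 9.54 (0.47), delta before WT. Acaca was 7.73 in the delta array and 7.7 in the WT array (0.03), and Elovl5 was 11.45 and 11.37 (0.09). Of the 11 genes past the threshold between the EGFP-positive groups, 10 had the same sign here, Elovl5 being the exception. Some of these signs rest on small differences, as for Acaca, Sqle (0.08) and Lss (0.12). The share of same signs over all genes past the threshold was not counted, so the 10 have no background. In these single arrays Stard4, Pmvk, Scd2 and Fdps were higher in delta, as they were between the EGFP-positive groups, while Acaca and Elovl5 were nearly level. No replicate bears on the EGFP-negative values.

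Other genes of the same pathways were read from lists of gene names. The background for every list count below is 10.4% of all genes rising and 6.02% falling. Among genes above the median level it is 16.2% and 9.41%. No list was tested against it. Of 12 measured genes of sterol uptake, storage, trafficking and efflux, 2 rose and 4 fell in the arrays labelled delta EGFP-positive against those labelled WT EGFP-positive (median -0.3). The fallers included the sterol exporters Abca1, at 6.37 in delta and 9.1 in WT on average (difference -2.73, adjusted p = 0.00017), and Abcg1 (-1.03, 0.003), and Mylip, the ubiquitin ligase that degrades lipoprotein receptors (-1.25, 0.00097). All 3 are known targets of the sterol-sensing LXR receptors. The lipoprotein receptors Scarb1 (1.11, 0.0016) and Lrp8 (0.91, 0.0018) rose. These 5 genes passed under all 14 alternatives, and the fourth faller, Npc1, a lysosomal sterol exporter (-0.67, 0.024), did not pass without delta replicate 2 (0.091) or 3 (0.073) or WT replicate 1 (0.093), nor without delta replicate 3 and WT replicate 2 together (0.077). Between the single EGFP-negative arrays, delta minus WT, Abca1 differed by -1.65, Abcg1 by -0.56, Mylip by -0.63, Scarb1 by 0.72 and Lrp8 by 0.67.

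Of 11 measured genes of fatty acid oxidation 7 rose and 0 fell (median 0.52). Acadl, an acyl-CoA dehydrogenase (1.16, adjusted p = 0.0052), and Slc25a20, the mitochondrial carnitine carrier (0.89, 0.0014), passed under all 14 alternatives, Acadl with a difference of 0.55 when its probe sets were averaged. Cpt1a, which admits long chains to mitochondria, rose by 0.89 (0.015). The count was 3 without delta EGFP-positive replicate 2 or without WT EGFP-positive replicate 1 and 4 without WT EGFP-positive replicate 3. Cpt1a was among those lost each time (0.059, 0.061 and 0.06). Of 15 other genes of fatty acid synthesis, activation and elongation 4 rose and 2 fell (median 0.09). Acsl5, an acyl-CoA synthetase (0.82, 0.0048), rose and its relative Acsl3 fell (-0.94, 0.0029). Hsd17b12, a reductase of the elongation cycle, rose by 0.73 (0.0047), and these 3 passed under all 14 alternatives. Acss2, which makes acetyl-CoA from acetate, fell by 0.7 (0.018), a call lost without delta replicate 2 (0.066) or 3 (0.051) or WT replicate 1 (0.063).

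Of 9 other sterol and isoprenoid genes 2 rose, Dhdds, a long-chain prenyl transferase (0.79, adjusted p = 0.031), and Tm7sf2, a sterol reductase (0.49, 0.045). That count was 0 without delta replicate 1 or 3 or WT replicate 1 or 3, and 1 without delta replicate 2 or WT replicate 2. Of 5 SREBP-processing genes Mbtps1, the first protease that cuts SREBP, fell (-0.55, 0.02), and it did not pass without delta replicate 1 (0.077) or 2 (0.055) or WT replicate 3 (0.059), or with its probe sets averaged (0.062). Mbtps2, the second protease, did not pass with all arrays (0.4, 0.28). It passed only where WT replicate 2 was left out, alone (0.63, 0.017) or together with delta replicate 3 (0.58, 0.034).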

How the data were processed

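Sorted mouse CD4+ T cells were profiled on 8 Affymetrix arrays. The authors deposited RMA values as linear intensity per probe set (tool per the submitters' processing notes). Array medians lay between 53.28 and 54.73, and precision is limited by how few arrays there are. Of 45101 probe sets 64 controls were left out. Platform annotation gave 1 symbol for 34945, several for 932 and none here for 9160; current symbols came from RefSeq.

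Log2 was taken with no offset. A mean per group was fitted to all 8 arrays with limma 3.58.1 in R 4.3.3 (4 residual and 3.72 prior degrees of freedom), two-sided, with Benjamini-Hochberg adjustment over 45037 probe sets and a threshold of 0.05; the fit was tested on simulated data. An exact permutation test of 3 arrays against 3 cannot give a p below 0.1. Genes past the threshold were named, and arrays printed for them. Members, lists and tests were chosen with earlier results of these data known. Alternatives were another normalization, an offset, a filter on dim probe sets, another variance model, the mean of probe sets, 6 arrays, a block and left-out arrays.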

Additional observations from a re-analysis of the deposited data

How the results depend on the processing

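Between the EGFP-positive groups the number of the 31 genes past the threshold was 11 with all arrays and 5 to 11 when 1 array was left out. It was 8 to 12 under the other 8 alternatives, among which the fit to the EGFP-positive arrays alone could not differ. The leading numbers of the array titles were tried as a replicate block, which gave 8 genes. Deviations of same-numbered arrays correlated at 0.121, 0.046 and -0.102, so the numbers were not taken as pairs. Both EGFP-negative arrays carry the leading number of replicate 1 of each EGFP-positive group. Without the block, the comparisons by tag therefore mix the tag with the title number. Idi1 (adjusted p = 0.084), Sqle (0.081) and Srebf2 (0.061) did not pass with the block, and Fdps (0.062), Lss (0.096) and Elovl6 (0.066) did not with probe sets averaged. Direction turned in 4 genes that had not passed: Mvd (0.008 with quantile normalization, 0.071 without WT replicate 2 and delta replicate 3, -0.104 to 0.057 with 1 array left out), Scap (-0.032 with probe sets averaged), Hmgcs1 (-0.061 to 0.193 with 1 array left out) and Acly (-0.149 to 0.025).

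For WT EGFP-positive against EGFP-negative the count of 1 was 0 with probe sets averaged or with the block and 0 to 1 with 1 array left out. The delta comparison and the interaction gave 0 under every alternative run. The 1 gene that differed 2-fold between the EGFP-negative arrays was lost (0) with quantile normalization, the offset or probe sets averaged.

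Over all probe sets, 5734 passed between the EGFP-positive groups (3355 to 7556 with 1 array left out). For the WT allele 496 passed, 83 with the block, 1845 without WT replicate 2 and delta replicate 3, and 259 to 1193 with 1 array left out. For the delta allele 34 passed, 17 with dim probe sets left out, 64 with a trended, robust variance, 1 with the block, 325 without both arrays, and 4 to 84 with 1 left out. For the interaction 18 passed, 4 with the offset, 3 without dim probe sets, 55 with the trended variance, 0 with the block, 171 without both arrays, and 2 to 85 with 1 left out. The cause of these shifts was not tested. Signal over background limits what can be seen for Scd1 and Fads2, whose probe sets lay below the median level.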
